A study of Mus musculus with 2 samples.

Results

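The S100 proteins are small calcium-binding proteins that form dimers, and mRNAs of 8 members of the family were followed in granulocyte-monocyte progenitors (GMPs), the bone marrow (BM) cells that give rise to neutrophils and monocytes. The members were taken by gene symbol: S100a1, S100a4, S100a6, S100a8, S100a9, S100a10, S100a11 and S100a13, out of 24421 symbols with a deposited value. Bulk RNA-seq gave 1 library of GMPs from female non-tumor-bearing mice (NTB-GMP, the control) and 1 library of GMPs from female mice bearing tumors of 4T1, a mammary carcinoma line of mouse, implanted orthotopically (4T1-GMP). Both groups were of the same F1 background (H-2b/d), and their cells were purified from BM by flow cytometry. By the study's methods its mice were young adults, and the day of collection and the number of mice behind each library are not given in the sources used here. With 1 library per group there is no replicate error, so no statistical test was made, and a tumor effect cannot be told apart from a difference between mice or between library preparations.

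Each S100 protein carries a pair of EF-hand calcium-binding loops, and calcium binding exposes a surface that grips partner proteins. Several members act outside the cell as well, as ligands of receptors such as TLR4 and the receptor for advanced glycation end products. S100A8 and S100A9 form the heterodimer calprotectin, one of the most abundant cytosolic proteins of neutrophils, and both are widely used as markers of myeloid-derived suppressor cells. The question put to these libraries was how the S100 genes of GMPs differ between hosts with and without a tumor.

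The values are RPKM, the reads of a gene divided by its length and by the size of the library, so levels of different genes can be set side by side. The library sizes by which the RPKM had been divided were about 10180365 for NTB-GMP and 30016263 for 4T1-GMP, a 2.95-fold difference. Neither size was a whole number, so they are not plain read totals, and the difference in sequencing depth need not be the same. Shares of a library are given against these sizes. Reads of the ribosomal RNA precursor Rn45s took 17.0% of the NTB-GMP size and 6.98% of the 4T1-GMP size. Leaving them out would shift log2 ratios by -0.16, and by less for low genes because of the pseudocount. Each log2 ratio is log2(RPKM + 0.1) of 4T1-GMP minus that of NTB-GMP, a scale on which differences of low genes come out too small. Genes whose mean RPKM reached 1 are called tested genes, a name that says only that they passed this minimum, and a gene was past the fold at a log2 ratio of at least 1 or at most -1. Intervals are exact 95% Clopper-Pearson intervals on the recovered reads. Those beside log2 ratios leave out the pseudocount, so for low genes they are not on quite the same scale as the log2 ratio. For S100a8, S100a10 and S100a11 the recovered reads are too low by a whole factor, which by itself makes their intervals too wide. Intervals cover counting error only, and no spread between mice or library preparations. They take each read as an independent molecule. PCR reads without molecular identifiers are not, which by itself makes all intervals too narrow.

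All 8 members were above 0 in both libraries and had a mean RPKM of at least 1. S100a6, S100a8 and S100a9 were at least 2-fold higher in 4T1-GMP, against 3.25% of the 10378 tested genes. S100a10 was at least 2-fold lower, against 4.92% of tested genes. The remaining 4 members, S100a1, S100a4, S100a11 and S100a13, stayed within 2-fold. In all, 6 of 8 members were higher in 4T1-GMP by any amount, against 54.7% of tested genes, and 2 of 8 were lower, against 45.3%. If Rn45s is removed from the sizes, 6 of 8 members were still higher, against 39.2% of tested genes. At that setting 2 of these 6 were close to equal levels, S100a13 with a log2 ratio of 0.0092 and S100a11 with 0.13. With the sizes as deposited, the median log2 ratio of the members was 0.47, beside 0.05 over all tested genes.

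**Figure D1:**
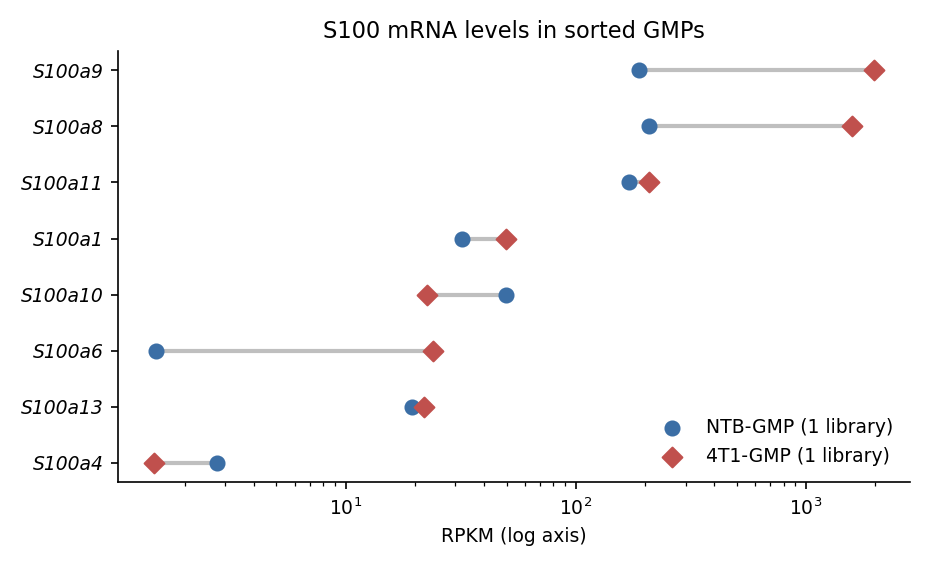
RPKM of the 8 S100 members on a log axis, with a circle for NTB-GMP and a diamond for 4T1-GMP (1 library each). S100a8 and S100a9 lie furthest to the right, at 1594 and 1974 RPKM in 4T1-GMP, and S100a6 has the widest gap, from 1.50 to 24.0 RPKM.

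The calprotectin genes S100a8 and S100a9 were the most abundant S100 mRNAs in both libraries. The GENCODE M21 annotation places S100a8 on chromosome 3 of GRCm38 from 90668978 to 90670035 (plus strand, ENSMUSG00000056054.9) and S100a9 from 90692632 to 90695721 (minus strand, ENSMUSG00000056071.12), with 22596 bases between them. Their promoters are shown with that of S100a6, since these 3 genes were past 2-fold higher in 4T1-GMP, and with that of S100a11, an abundant member that differed little. Each sequence runs 5′ to 3′ on the strand of its gene, from 250 bases before to 50 bases after the RefSeq start of the gene in GRCm38.p6. Capitals mark matches, on either strand, to TTNNGNAA (the core bound by C/EBP factors), TATAAA (the TATA box), GAGGAA (a core bound by PU.1) and TGANTCA (the AP-1 site). The windows are chr3:90668821-90669120 for S100a8, chr3:90695672-90695971 (minus strand) for S100a9, chr3:90612644-90612943 for S100a6 and chr3:93520246-93520545 for S100a11.
S100a8: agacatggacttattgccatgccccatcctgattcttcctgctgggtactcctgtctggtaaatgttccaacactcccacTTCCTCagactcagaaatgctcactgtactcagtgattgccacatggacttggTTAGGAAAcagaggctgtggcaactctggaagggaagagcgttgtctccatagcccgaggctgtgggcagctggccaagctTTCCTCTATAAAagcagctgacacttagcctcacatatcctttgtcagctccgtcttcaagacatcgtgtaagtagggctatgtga
S100a9: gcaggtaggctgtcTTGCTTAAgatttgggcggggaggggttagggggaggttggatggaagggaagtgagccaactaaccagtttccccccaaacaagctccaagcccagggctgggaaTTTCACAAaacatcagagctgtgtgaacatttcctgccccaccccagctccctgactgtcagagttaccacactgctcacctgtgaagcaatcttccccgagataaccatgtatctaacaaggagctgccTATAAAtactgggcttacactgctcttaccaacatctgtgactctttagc
S100a6: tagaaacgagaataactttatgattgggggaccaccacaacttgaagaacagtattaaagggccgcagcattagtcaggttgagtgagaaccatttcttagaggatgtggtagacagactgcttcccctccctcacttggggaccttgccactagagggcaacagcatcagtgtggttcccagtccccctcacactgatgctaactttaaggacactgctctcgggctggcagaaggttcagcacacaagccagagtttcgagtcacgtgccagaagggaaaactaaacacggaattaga
S100a11: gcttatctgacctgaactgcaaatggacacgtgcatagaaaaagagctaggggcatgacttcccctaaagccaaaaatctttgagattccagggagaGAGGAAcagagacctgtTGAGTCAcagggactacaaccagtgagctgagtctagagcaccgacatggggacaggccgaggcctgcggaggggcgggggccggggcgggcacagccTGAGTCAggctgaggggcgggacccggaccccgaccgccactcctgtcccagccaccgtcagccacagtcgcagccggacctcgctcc

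S100a8 held 1 match to TTNNGNAA, 117 bases before the start, and S100a9 held 2, at 236 and 130 bases before it. Of the 7 members with an entry in the RefSeq promoter set, these were the 2 with this motif, which 40.7% of all 32851 promoter windows held. A TATA box stood 30 bases before the start of S100a8, 31 bases before that of S100a4 and at the annotated start itself in S100a9, against 13.6% of all windows. In S100a8 the TATA box directly follows a match to GAGGAA on the opposite strand, without overlap, and a further match to GAGGAA lies 170 bases upstream. That motif was in 28.3% of all windows. S100a11 had 2 AP-1 matches, at 136 and 38 bases before the start, a motif found in 7.81% of all windows, and 1 match to GAGGAA. The S100a6 window held none of the 4 motifs. A relation between motifs and log2 ratios was not tested. A match describes letters in the window and shows no binding.

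S100a8 had 208 RPKM in NTB-GMP against 1594 RPKM in 4T1-GMP, 7.67-fold higher, with a log2 ratio of 2.94 (interval 2.80 to 3.08). S100a9 had 189 RPKM in NTB-GMP against 1974 RPKM in 4T1-GMP, 10.4-fold higher, with a log2 ratio of 3.38 (interval 3.29 to 3.48). Of all tested genes, 0.540% had a log2 ratio above that of S100a8 and 0.395% above that of S100a9. Ranked by RPKM among all listed genes, an order that does not move with library size, S100a8 went from position 215 in NTB-GMP to position 23 in 4T1-GMP, and S100a9 from position 238 to position 16. Both were thus well expressed in control GMPs and among the most abundant mRNAs of GMPs from tumor-bearing mice.

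The balance of the 2 calprotectin mRNAs differed between the libraries too. The ratio of S100a9 to S100a8, taken on RPKM within a library, was 0.909 (interval 0.810 to 1.02) in NTB-GMP and 1.24 (interval 1.21 to 1.27) in 4T1-GMP. S100a8 was thus slightly above S100a9 in NTB-GMP, and S100a9 was above S100a8 in 4T1-GMP. With the reads of S100a8 taken at 3 times the recovered number, the NTB-GMP interval was 0.836 to 0.989. Whether it spans equal levels thus depends on that multiple. The implied length of S100a8 is then 588 bases, above its GENCODE transcripts of 486 to 498 bases, so the multiple itself is not settled. The counting intervals of the 2 libraries do not overlap with either number of reads. A ratio within a library does not depend on the library size, but it does depend on the gene lengths that were used for the RPKM.

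Together the 8 members summed to 672 RPKM in NTB-GMP against 3896 RPKM in 4T1-GMP, a 5.80-fold difference. S100a8 and S100a9 made up 59.1% of that sum in NTB-GMP and 91.6% in 4T1-GMP. The other 6 members summed to 275 and 328 RPKM, 1.19-fold higher in 4T1-GMP. The calprotectin genes thus made up most of the difference in the family's total. As a share of the library size, the recovered reads of the members came to at least 0.0221% (interval 0.0211 to 0.0230) in NTB-GMP and at least 0.145% (interval 0.144 to 0.147) in 4T1-GMP.

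**Figure D2:**
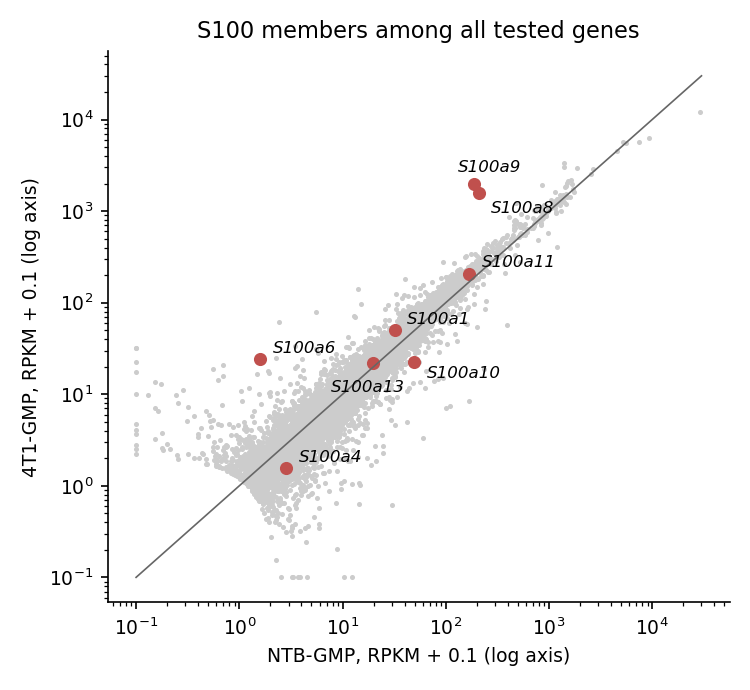
RPKM + 0.1 in NTB-GMP (x axis) and 4T1-GMP (y axis), both on log axes, for every tested gene (grey) and the 8 members (red), with a line at equal levels. S100a8, S100a9 and S100a6 sit far above the line, S100a10 below it, and S100a11 and S100a13 close to it.

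S100a6, which encodes calcyclin, a member known from proliferating cells, had the highest log2 ratio of the family by its point value. It was close to the lower limit of tested genes in control GMPs, with 1.50 RPKM from 11 reads in NTB-GMP, and had 24.0 RPKM from 519 reads in 4T1-GMP. The log2 ratio was 3.91 (interval 3.15 to 5.01), a 16-fold difference in RPKM, and 0.279% of tested genes had a higher log2 ratio. The interval is wide because NTB-GMP held few reads of the gene. It contains the whole interval of S100a9 (3.29 to 3.48), so which of these 2 members differed more is not settled. In 4T1-GMP the level of S100a6 was similar to those of S100a10 and S100a13 in the same library, far below those of the calprotectin genes. GENCODE M21 places S100a6 on chromosome 3 from 90612882 to 90624181 (plus strand).

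S100a4, which encodes metastasin, a partner of nonmuscle myosin that is also made by many metastatic tumor cells, was the lowest member in 4T1-GMP. It had 2.76 RPKM from 14 reads in NTB-GMP against 1.47 RPKM from 22 reads in 4T1-GMP. The log2 ratio of -0.86 (interval -1.94 to 0.17) was not distinguishable from equal levels at this depth. If Rn45s is removed from the sizes it was -1.03, which would put S100a4 past the fold and bring the members at least 2-fold lower from 1 to 2, against 6.75% of tested genes at that setting. S100a4 starts 9111 bases before S100a6 on the same strand (90603771 to 90606045), and the log2 ratios of these neighbors had opposite signs.

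The members that pair with annexins went different ways. S100a10 encodes p11, which binds annexin A2 and is unusual in the family for having lost the ability to bind calcium. It had 49.6 RPKM in NTB-GMP against 22.7 RPKM in 4T1-GMP, 2.19-fold lower, with a log2 ratio of -1.13 (interval -1.43 to -0.83). Only 4.01% of tested genes had a lower log2 ratio. S100a11, which encodes calgizzarin, a partner of annexin A1, had 170 RPKM in NTB-GMP against 208 RPKM in 4T1-GMP, with a log2 ratio of 0.29 (interval 0.10 to 0.48), which quantile normalization of the libraries brought down to 0.0597. S100a11 was close in level to the calprotectin genes in NTB-GMP and far below them in 4T1-GMP. The 2 genes lie near each other on chromosome 3, S100a11 from 93520488 to 93526287 and S100a10 from 93555080 to 93564643, both on the plus strand.

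S100a1, best known from heart and skeletal muscle, had 31.9 RPKM in NTB-GMP against 49.9 RPKM in 4T1-GMP, with a log2 ratio of 0.64 (interval 0.42 to 0.87). S100a13, which takes part in the release of FGF1 without a signal peptide, had 19.5 and 22.0 RPKM, with a log2 ratio of 0.17 (interval -0.10 to 0.45). S100a1 was higher by more than counting error, and S100a13 was not. The genes are divergent neighbors, S100a1 on the minus strand from 90511034 to 90514392 and S100a13 on the plus strand from 90514435 to 90524581. In the RefSeq gene table they overlap by 98 bases, and their promoter windows share 204 bases. Whether the counting used strand is not given in the sources used here, so reads from that overlap cannot be assigned to either gene.

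**Figure D3:**
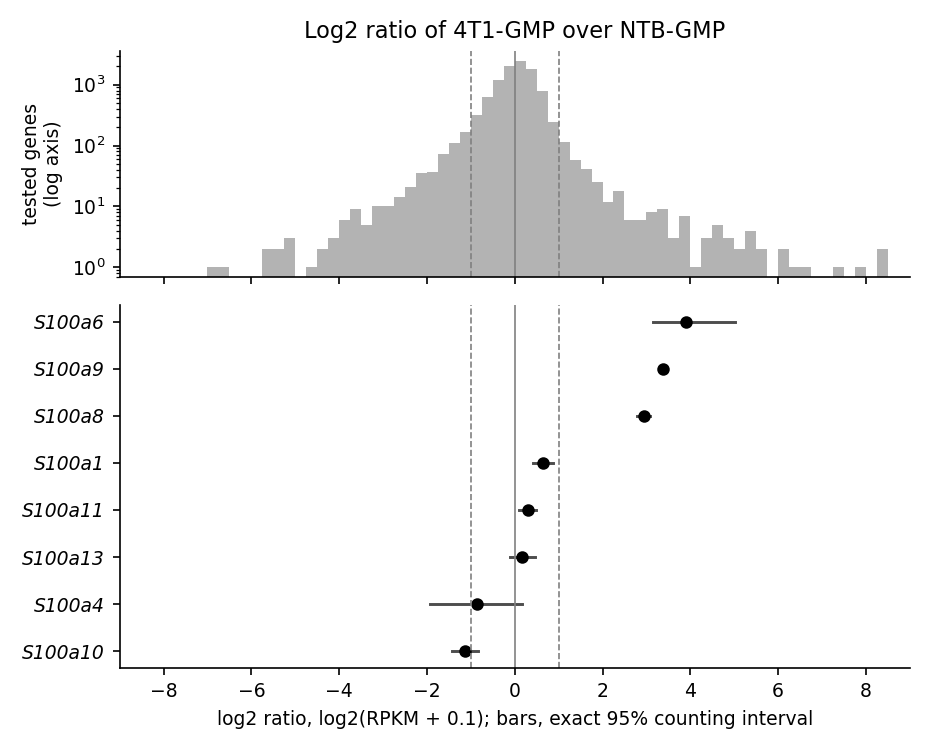
Top, number of tested genes (log axis) by log2 ratio of 4T1-GMP over NTB-GMP in bins of 0.25. Bottom, the log2 ratio of each S100 member (points) with its exact 95% counting interval (bars), with dashed lines at 2-fold. S100a6, S100a9 and S100a8 lie in the sparse upper tail of the tested genes, and the interval of S100a4 spans 0.

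In order of level in NTB-GMP, S100a8 came first, followed by S100a9, S100a11, S100a10, S100a1, S100a13, S100a4 and S100a6. In 4T1-GMP the order was S100a9, S100a8, S100a11, S100a1, S100a6, S100a10, S100a13 and S100a4. Most neighbors in these orders differed by more than counting error. The exceptions were S100a4 and S100a6 in NTB-GMP (ratio of RPKM 1.83, interval 0.773 to 4.46), and S100a6 and S100a10 (1.06, interval 0.905 to 1.25) and S100a10 and S100a13 (1.03, interval 0.874 to 1.21) in 4T1-GMP. For S100a8 over S100a9 (1.10) and S100a9 over S100a11 (1.12) in NTB-GMP the answer turned on the number of reads. Their intervals were 0.978 to 1.23 and 0.978 to 1.28 with the recovered reads, and 1.01 to 1.196 and 1.02 to 1.22 with the reads of S100a8 and S100a11 taken at 3 times that number. In 4T1-GMP a wide step of 7.68 (interval 7.20 to 8.19) separated S100a8 from S100a11.

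Another 9 genes of the family were listed, and all were at 0 in both libraries: S100a2, S100a3, S100a5, S100a7a, S100a14, S100a16, S100b, S100g and S100z. Over the longest GENCODE transcript of each, 3 reads would correspond to 0.0938 to 0.936 RPKM in NTB-GMP and 0.0318 to 0.317 RPKM in 4T1-GMP. A 0 thus allows levels at least up to these values. The gene lengths behind the RPKM are not given, and a shorter length would allow a higher level. Both libraries thus held reads of the same 8 of the 17 S100 genes listed. Of these 17 genes, 14 lie on chromosome 3. Between S100a4 and S100a8 the genes with reads alternate with genes at 0, with S100a5 before S100a6 and S100a7a after it, and 4 genes at 0 (S100a14, S100a16, S100a3 and S100a2) lie between S100a13 and S100a4.

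**Figure D4:**
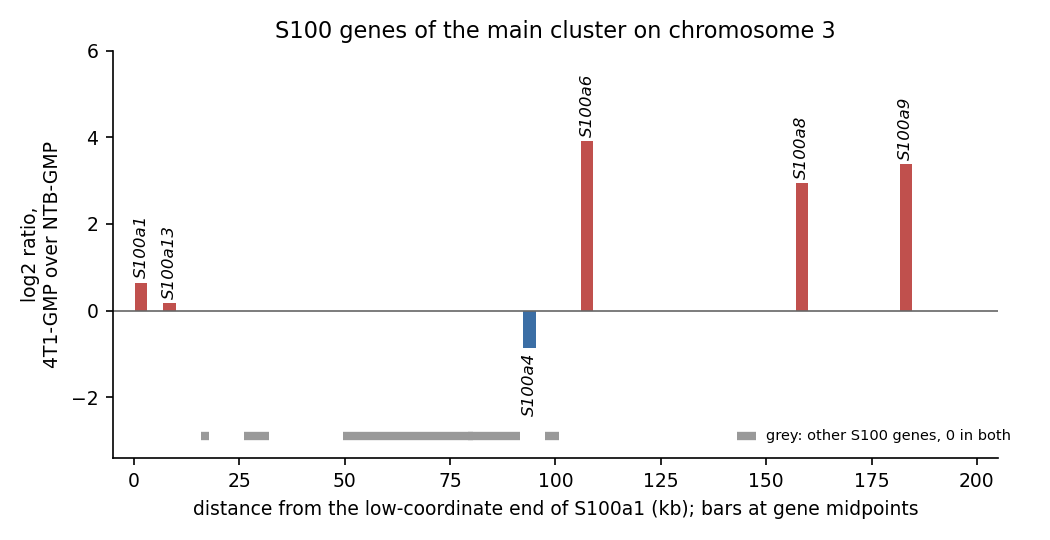
Log2 ratio of 4T1-GMP over NTB-GMP (bars, at gene midpoints) along the main S100 cluster of chromosome 3, in kb from the low-coordinate end of S100a1, with the S100 genes at 0 in both libraries as grey blocks. The 6 members there span 185 kb. Of the 3 with the highest ratios, S100a8 and S100a9 stand at the far end from S100a1, and S100a6 lies between S100a4 and S100a8.

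Besides these S100 genes, 56 listed genes lie between S100a1 and S100a10, a stretch of 3.05 Mb that holds the epidermal differentiation complex. Of these, 52 were at 0 in both libraries and the other 4 were under the minimum of a tested gene, with 0.751 RPKM as the highest value in either library. The 8 members were therefore the tested genes of this stretch.

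For each member past the fold, the tested genes nearest to it in level in both libraries were found by Euclidean distance on the log2 scale, over these 2 libraries. The nearest gene to S100a8 was S100a9 and the reverse (distance 0.34), and the next, Ms4a3, a GMP marker, was much further off at 1.26 from S100a8 and 1.51 from S100a9. Hist4h4 followed at 1.32 and 1.63. No gene outside the family thus had levels close to those of the calprotectin pair in both libraries. Nearest to S100a6 were Ifitm6 (0.49), itself in the list of later neutrophil markers below, Dgat2 (0.51) and Lrg1 (0.56), the last a secreted glycoprotein stored in neutrophil granules. S100a10 had close neighbors in 4930470H14Rik (0.07), Dapp1 (0.14) and Clec2d (0.16).

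Receptors and partners of S100 proteins formed 2 lists. Among 11 receptors and coreceptors on the cell surface, 7 were tested, with a median log2 ratio of 0.45. Of these 7, 6 were higher in 4T1-GMP, against 54.7% of tested genes. If Rn45s is removed from the sizes, 5 were higher, against 39.2%. At least 2-fold higher were 2, against 3.25% of tested genes. After quantile normalization it was 3, a setting for which the share of tested genes was not counted. Cd14, named after its values were seen, fell just short of the fold because of the pseudocount. It had 3.61 RPKM in NTB-GMP against 7.30 RPKM in 4T1-GMP, 2.02-fold higher, with a log2 ratio of 0.997 (interval 0.62 to 1.43). Tlr4, a receptor of calprotectin, had 6.51 RPKM in NTB-GMP against 16.4 RPKM in 4T1-GMP, a log2 ratio of 1.32 (interval 1.00 to 1.67). Cd33, which encodes a sialic acid-binding lectin reported to bind S100A9, had 0.458 and 5.12 RPKM (log2 ratio 3.22, interval 2.66 to 4.45). Cd33 passed the minimum only through 4T1-GMP, where it was high, so its place among the 2 receptors past the fold is no support for a difference of the list. The receptors with the highest levels were Bsg (basigin) with 81.9 and 96.8 RPKM, Nptn (neuroplastin) with 21.2 and 29.1 RPKM, and Cd69 with 18.3 and 19.2 RPKM. Ager, named after its values were seen because it encodes the receptor for advanced glycation end products, was below the minimum, with 1.10 RPKM in NTB-GMP against 0.784 RPKM in 4T1-GMP.

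Of 12 intracellular partners, 10 were tested, with a median log2 ratio of 0.28. Of these 10, 6 were higher in 4T1-GMP, close to the 54.7% of all tested genes. None was at least 2-fold higher, against 3.25% of tested genes, and 2 were at least 2-fold lower, against 4.92%. Ahnak, a scaffold bound by the complex of p11 and annexin A2, had 6.30 RPKM in NTB-GMP against 1.29 RPKM in 4T1-GMP, a log2 ratio of -2.20 (interval -2.48 to -2.09). Anxa6 had 32.2 and 15.7 RPKM (log2 ratio -1.03, interval -1.16 to -0.91). S100a10 and Ahnak were thus both lower in 4T1-GMP. Anxa2, named after its values were seen because it pairs with p11, was higher instead, with 30.6 and 42.9 RPKM (log2 ratio 0.49, interval 0.27 to 0.71). The partners with the highest levels all stayed within 2-fold: Myh9, the nonmuscle myosin bound by metastasin, with 148 and 142 RPKM, Anxa1 with 101 and 129 RPKM, and Cacybp, named for its binding to calcyclin, with 64.3 and 81.9 RPKM.

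Marker lists of cell types also differed between the libraries, and only the later neutrophil markers were higher as a whole list, as the calprotectin genes were. GMP and primary granule genes marked both libraries, with Mpo (myeloperoxidase) at 5163 RPKM in NTB-GMP against 5625 RPKM in 4T1-GMP. The progenitor surface markers were all lower in 4T1-GMP, Kit with 78.5 and 49.1 RPKM (log2 ratio -0.67), Cd34 with 154 and 59.4 RPKM (-1.37) and Fcgr3 with 53.1 and 28.6 RPKM (-0.89). Ms4a3 (log2 ratio 1.35) and the granule protease genes Prtn3 (1.24) and Ctsg (1.11) were at least 2-fold higher. Of the 8 GMP and primary granule genes, 5 were higher in 4T1-GMP, against 54.7% of tested genes, with summed levels of 10568 and 16226 RPKM. At least 2-fold higher were 3, against 3.25%, and at least 2-fold lower was 1, against 4.92%. If Rn45s is removed from the sizes, 4 were higher (39.2% of tested genes), 2 at least 2-fold higher (2.51%) and 2 at least 2-fold lower (6.75%). Quantile normalization gave the same counts of these genes. All 16 later neutrophil markers were higher in 4T1-GMP, against 54.7% of tested genes (15 if Rn45s is removed from the sizes, against 39.2%). Of these 16, 14 were at least 2-fold higher, against 3.25% of tested genes. Their median log2 ratio was 2.87, with summed levels of 147 RPKM in NTB-GMP against 696 RPKM in 4T1-GMP. None of the 16 was at 0 in either library, but 4 (Ly6g, Mmp8, Mmp9 and Fpr1) passed the minimum only through 4T1-GMP. These 4 are thus no support for a difference of the list. Of them, Ly6g, part of the Gr-1 epitope, had 0.426 and 4.30 RPKM. Mmp8, a collagenase of neutrophil granules, had 0.521 and 14.1 RPKM. The markers within 2-fold were Chil3 (log2 ratio 0.66) and Padi4 (0.13, interval -0.43 to 0.72), the latter not distinguishable from equal levels. In both libraries S100a8 alone had a level above the sum of the 16. The study's methods describe depletion of Gr-1-positive cells before other GMP sorts, and the gate used for these libraries is not given in the sources used here. The part of such cells in the levels of S100a6, S100a8 and S100a9 was not tested, and more cells of a type cannot be told apart from more RNA per cell in bulk samples.

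Of the 10 monocyte and dendritic markers, 9 were tested, of which 8 were lower in 4T1-GMP, against 45.3% of tested genes. The exception was F13a1, near equal levels with a log2 ratio of 0.016. If Rn45s is removed from the sizes 0 were higher, against 39.2% of tested genes. After quantile normalization 0 were higher too, a setting for which the share of tested genes was not counted. At least 2-fold lower were 6, against 4.92% of tested genes. The median log2 ratio was -1.80, and the 10 markers summed to 280 RPKM in NTB-GMP against 119 RPKM in 4T1-GMP. None was at 0, and Cx3cr1 passed the minimum only through NTB-GMP. S100a10 was lower as these genes were, and the part of such cells in its level was not tested. Of the 8 mammary epithelium and carcinoma markers, the 4 genes Epcam, Krt19, Krt14 and Cldn4 were at 0 in both libraries. The 2 tested, Krt18 and Cdh1, were lower in 4T1-GMP, against 45.3% of tested genes. The list had summed levels of 18.3 and 10.1 RPKM. The 7 B and T lymphocyte markers summed to 0.803 RPKM in NTB-GMP against 0.261 RPKM in 4T1-GMP, with Cd3g at 0 in both. The 6 erythroid markers summed to 7.43 and 1.22 RPKM, with Hbb-bt and Hba-a1 at 0 in both. The 2 tested genes, Klf1 and Gata1, were at least 2-fold lower, against 4.92% of tested genes. Both passed the minimum only through NTB-GMP, where they were higher, so they are no support for a difference of the list.

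**Figure D5:**
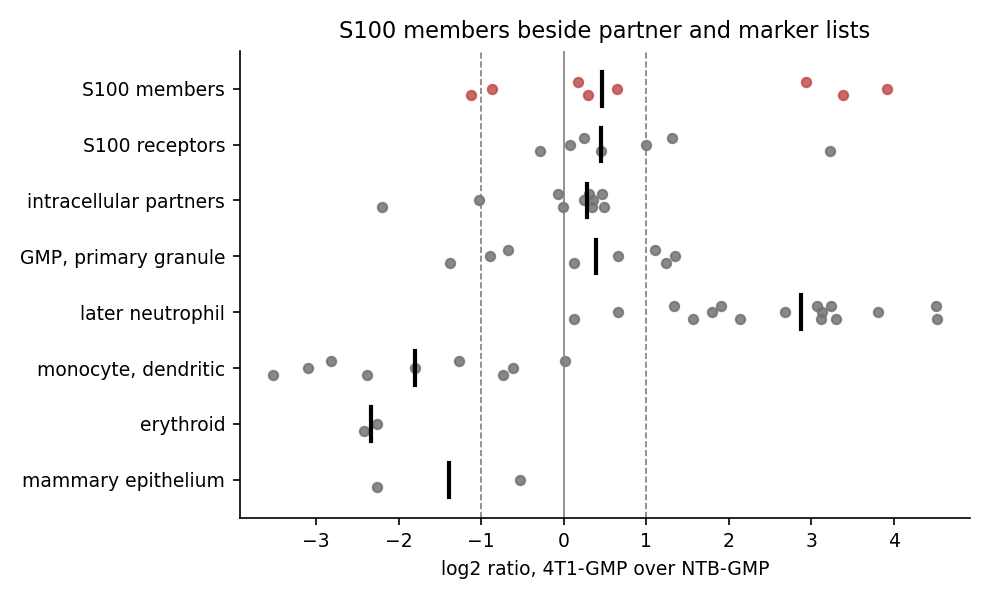
Log2 ratio of 4T1-GMP over NTB-GMP for each tested gene (points) of the S100 members (red), their receptors and partners, and 5 marker lists (grey), with the median of each list (black bar) and dashed lines at 2-fold. S100a6, S100a8 and S100a9 lie beyond the upper 2-fold line and S100a10 beyond the lower one, and the later neutrophil markers run from 0.13 to 4.52.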

How the data were processed

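RNA was measured in 1 library of NTB-GMP and 1 library of 4T1-GMP. The authors deposited RPKM, that is, reads per unit of gene length and of library size, and each symbol has 1 value. The submitters' processing notes name CASAVA 1.8.2, cutadapt 1.2.1, TopHat2 2.0.13, Picard 1.97, HTSeq 0.6.1, edgeR 3.12.1 and build mm10. The gene annotation and gene lengths are not given in the sources used here.

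Read numbers were worked back from the RPKM. Each value is a whole number of reads over a whole gene length and 1 library size, and the size was located from GENCODE M21 lengths. Neither size was a whole number, so they are not plain read totals. The lowest whole reads and length that give both values were taken, for 14833 of 14833 genes above 0, within a relative tolerance of 2e-13. These reads are lower bounds. For S100a8, S100a10 and S100a11 the implied lengths (196, 325 and 168 bases) are below their shortest GENCODE transcript (486, 477 and 511 bases), so their counts are too low by a whole factor and their intervals too wide. As an alternative chosen after seeing the data, these reads were taken at 3, 2 and 3 times that number, the smallest multiple that reaches 95% of that length. The procedure was tested on simulated data.

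Named were all members, other S100 genes listed, receptors and partners past 2-fold or among the 3 highest levels of their list, and the 3 nearest genes to members past 2-fold. Ager, Anxa2, Cd14 and the cell type markers given as examples were named after their values were seen. The members and lists were chosen with earlier results of these data known. S100a7l2 had no row under that symbol. Alternatives were pseudocounts of 1 and 0.01, library sizes without Rn45s, centring on the median, quantile normalization and other minimums. Computations used Python 3.11.15, numpy 2.4.6, pandas 2.3.3 and scipy 1.17.1.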

Additional observations from a re-analysis of the deposited data

How the results depend on the processing

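Of 69 values under alternatives, 58 stayed within the counting interval or near the same count, 11 moved beyond it and 0 reversed in direction. Part of this tally was fixed in advance. All 8 members were above 0, so that minimum left out none, and a ratio of RPKM does not change with the number of reads. Removing Rn45s from the sizes gave log2 ratios of 2.77 for S100a8 and 3.22 for S100a9. The members at least 2-fold lower went from 1 to 2 (6.75% of tested genes), and the share of reads in the members was 0.0266% in NTB-GMP and 0.156% in 4T1-GMP. These changes follow from the shift of -0.16 and the smaller sizes. Quantile normalization gave 2.71 for S100a8, 3.08 for S100a9 and 0.0597 for S100a11, and a ratio of S100a9 to S100a8 of 1.16 in 4T1-GMP, and the cause was not tested. With the higher reads of S100a8, S100a10 and S100a11 (added once the data had been seen), the share of reads was 0.0375% in NTB-GMP and 0.216% in 4T1-GMP, and by the narrower intervals 1 more value, S100a11 without Rn45s (0.13), would lie outside. Each setting kept 3 members at least 2-fold higher. The median of the members ran from 0.29 (quantile normalization) to 0.64 (a mean RPKM of at least 5, which leaves out S100a4). Depth limits S100a4 and S100a6, with 14 and 11 reads in NTB-GMP. No paired analysis was possible because neither group was replicated, and leaving out a replicate could not be done either.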
